A study of Mus musculus with 10 samples.

Results

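The genes described here are 10 cytokine genes of the tumor necrosis factor (TNF), interleukin-1 (IL-1), TGF-β and IL-10 families, and they were taken by gene name. All 10 were found among the 22548 genes measured by RNA-seq in osteocytes, the cells embedded in bone matrix. The set holds 4 ligands of the TNF superfamily (Tnf, Lta, Ltb and Tnfsf10), 4 genes of the IL-1 family (Il1a, Il1b, Il18 and Il1rn, which encodes an antagonist), Tgfb1 and Il10. In the MM group, 5 C57BL/6 mice had received the murine Vk*MYC myeloma cell line Vk12598 by injection into the femur. In the No MM group, 5 C57BL/6 mice served as controls without myeloma cells, and the study's methods describe such controls as injected with PBS. All mice were labelled male and 8 weeks old and gave 1 library each, and the labels list no engineered allele. The myeloma was 1 transplanted line, and the osteocytes were pellets from serial collagenase and EDTA digestion of bone pieces, with no sorting step in the labels. The comparison asks whether transcripts of these cytokines differed in osteocytes of myeloma-bearing bone.

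TNF and lymphotoxin-α, the product of Lta, bind the same TNF receptors, while lymphotoxin-β, the product of Ltb, anchors lymphotoxin-α to the membrane and signals through the lymphotoxin-β receptor. TRAIL, the product of Tnfsf10, engages a death receptor. IL-1α and IL-1β share 1 receptor, which IL-1Ra, the product of Il1rn, occupies without signaling, and IL-1β and IL-18 are matured by the inflammasome protease caspase-1. In bone, TNF and IL-1 are known to promote osteoclast formation together with RANKL, TGF-β1 is stored in the matrix and released on resorption, and IL-10 restrains inflammatory cytokine production.

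Counted reads ranged from 31099174 to 39466332 per library, and 3 counts, taken as the smallest detectable number, equaled 0.0760 to 0.0965 CPM, the unit used below for counts scaled to library size. The osteocyte genes Dmp1, Sost, Phex and Mepe were detected in every library, with summed osteocyte markers of 308 to 2417 CPM. Summed neutrophil markers ranged from 6434 to 28769 CPM, so other bone and marrow cells were also represented. Some libraries stood apart. Immunoglobulin genes took 26.84% of counts (95% Wilson interval 26.83% to 26.86%) in the library labelled No MM 3 and 29.27% (29.26% to 29.29%) in the library labelled No MM 4, against 0.648% to 3.98% in the other 8. These intervals cover counting error only. Those same No MM libraries held the highest plasma cell marker sums, 9265 and 9283 CPM against 583 to 1266 CPM elsewhere, and the lowest osteoblast, osteoclast and neutrophil marker sums. The label male also went against the data in 7 libraries. Summed Y-linked transcripts (Ddx3y, Eif2s3y, Kdm5d and Uty) were present in No MM 5, MM 9 and MM 10, at 142 to 176 CPM, and lay between 0 and 1.27 CPM in the other 7. Xist was between 36.2 and 718 CPM in those 7 and between 0.364 and 6.20 CPM in the 3 libraries with Y-linked transcripts. Results that rest on these libraries are given with and without them.

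Lta, Tnf and Ltb are neighbors. In GRCm38 coordinates, Lta occupies chr17:35203165-35205351 on the minus strand, Tnf chr17:35199381-35202007 on the minus strand, and Ltb chr17:35194439-35196320 on the plus strand. The gap between Lta and Tnf was 1157 bases, that between Tnf and Ltb 3060 bases, and the 3 genes together spanned 10913 bases. Il1a (chr2:129299610-129309972) and Il1b (chr2:129364570-129371139) lie 54597 bases apart on the minus strand. The stretches just before the start of each gene are shown because a shared factor, such as NF-kappaB, can act on cytokine genes at such positions. Positions farther upstream were not examined. They are RefSeq promoter sequences of GRCm38.p6, 5′ to 3′ on the gene's own strand, up to 250 bases long, and stop before the first base of the gene. Capitals mark matches on either strand to GGGNNNNNCC, a loose form of the kappaB motif in which N is any base, and a capital run longer than the motif holds overlapping matches.
Tnf: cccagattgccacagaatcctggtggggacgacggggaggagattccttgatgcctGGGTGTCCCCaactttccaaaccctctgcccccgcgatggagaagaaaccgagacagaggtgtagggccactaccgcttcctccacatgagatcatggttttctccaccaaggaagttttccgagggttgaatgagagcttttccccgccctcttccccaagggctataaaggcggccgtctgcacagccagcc
Lta: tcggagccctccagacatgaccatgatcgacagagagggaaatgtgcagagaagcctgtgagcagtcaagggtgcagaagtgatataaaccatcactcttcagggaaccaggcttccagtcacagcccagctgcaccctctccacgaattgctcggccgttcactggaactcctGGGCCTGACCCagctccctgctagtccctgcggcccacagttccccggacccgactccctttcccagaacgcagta
Ltb: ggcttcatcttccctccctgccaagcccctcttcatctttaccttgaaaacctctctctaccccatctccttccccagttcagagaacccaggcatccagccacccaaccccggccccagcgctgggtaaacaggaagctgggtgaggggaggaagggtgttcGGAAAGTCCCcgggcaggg
Il1b: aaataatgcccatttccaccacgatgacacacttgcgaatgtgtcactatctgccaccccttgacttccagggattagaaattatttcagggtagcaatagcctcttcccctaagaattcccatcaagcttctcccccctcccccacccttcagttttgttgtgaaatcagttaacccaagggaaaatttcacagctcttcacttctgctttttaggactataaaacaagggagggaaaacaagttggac
These sequences came from chr17:35202008-35202257 (minus strand) for Tnf, chr17:35205352-35205601 (minus strand) for Lta, chr17:35194257-35194438 (plus strand) for Ltb and chr2:129371140-129371389 (minus strand) for Il1b. The Ltb stretch was 182 bases long, because the RefSeq start lies within the deposited gene. The Tnf match covered bases 185 to 194 before the first base of the gene and reads as a match on both strands. The Ltb match lay 10 to 19 bases before the first base of the gene on the opposite strand, where it reads GGGACTTTCC. It therefore also fits a stricter form of the motif, in which the last CC follows TTT, and which occurred in 1.41% of all 32851 RefSeq promoter windows of 250 bases and in 0.974% of them when each was cut to its first 182 bases. No match was found in the Il1b stretch. Among the 9 genes with a RefSeq window, 5 held the loose form, which was found in 45.8% of all windows of 250 bases.

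Of the 10 cytokine genes, 9 had a log2 fold change above 0 in MM and Il10 alone was below 0. None passed an adjusted p-value of 0.05 in edgeR's quasi-likelihood test, in which 0% of the 16186 tested genes were called. At an unadjusted p-value under 0.05, Tnf and Lta were higher in MM and no member was lower. The background of that count was 14.1% of all tested genes, of which 3.81% were higher and 10.3% lower. Their median log2 fold change was 0.40, against -0.03 for all tested genes. With DESeq2, 0 of the 10 passed an adjusted p-value of 0.05, against a background of 1.17%. Only for Lta did every MM value exceed every No MM value, a pattern found in 0.729% of tested genes. In 7 of the 10 genes, the lowest No MM library was No MM 3 or No MM 4. Without those libraries, 7 of the 10 were above 0. Lta alone then had an unadjusted p-value under 0.05, against a background of 5.89% of tested genes, and the adjusted test called 0% of genes. In bulk RNA, fewer cells of a type and less RNA per cell cannot be told apart.

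**Figure D1:**
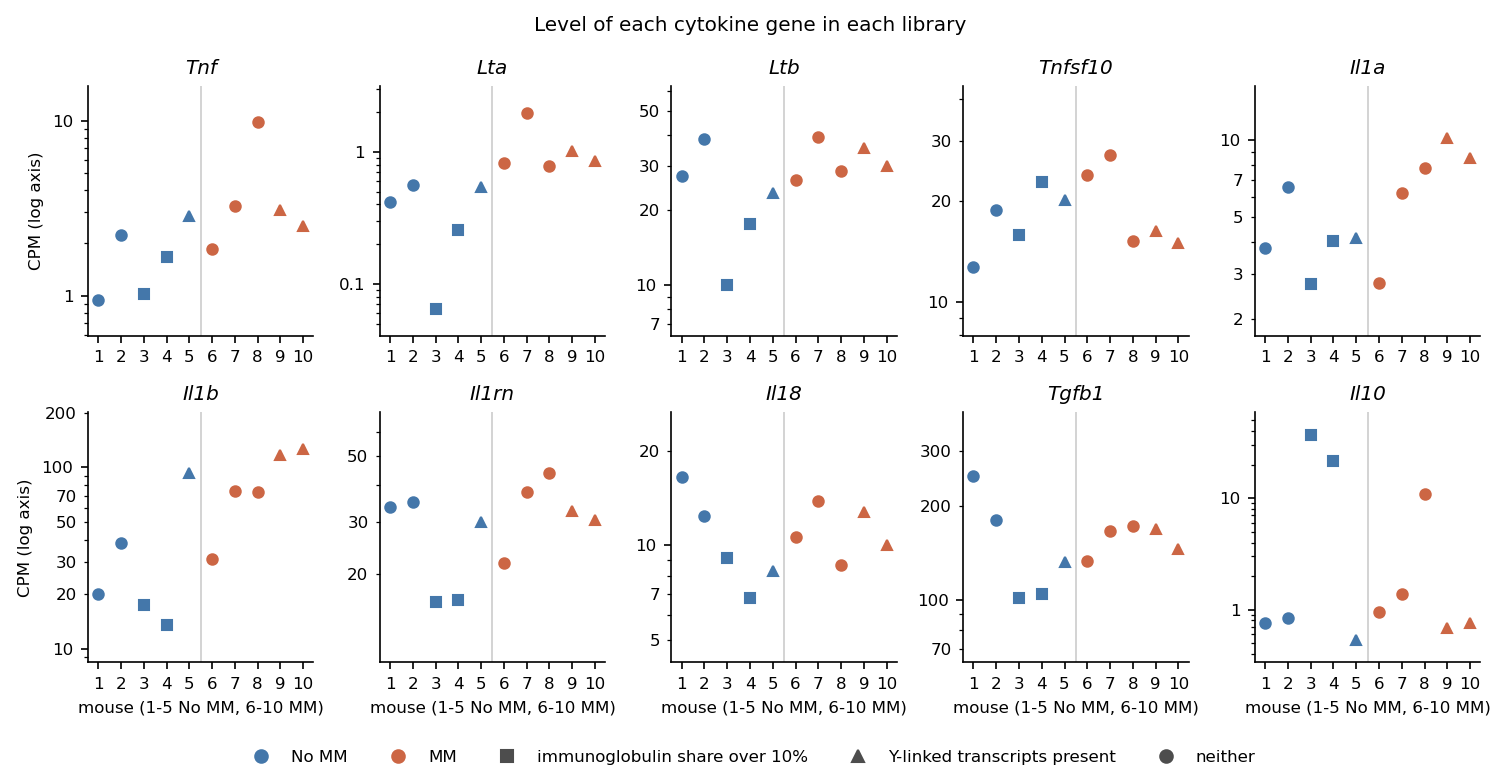
Level of each of the 10 cytokine genes in each library, in CPM on a log axis, with mice 1 to 5 (No MM) left and 6 to 10 (MM) right of the line; squares are libraries with an immunoglobulin share over 10% and triangles libraries with Y-linked transcripts. The MM values of Lta lie above all No MM values, Il1b is highest in the 3 triangles, and Il10 is high in both squares and in MM 8.

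Among the TNF superfamily ligands, Lta had the highest fold change and the lowest level. Its values in No MM 1 to 5 were 0.419, 0.563, 0.0646, 0.254 and 0.539 CPM. In MM 6 to 10 they were 0.828, 1.97, 0.780, 1.02 and 0.859 CPM. The groups did not overlap, and MM 7 was the highest library. No MM mice averaged 0.368 ± 0.209 CPM (SD, n = 5), and MM mice averaged 1.09 ± 0.501 CPM (SD, n = 5). A two-sided exact permutation test over the 252 assignments of mice to groups gave p = 0.00794, the smallest that this design allows. Its edgeR fold change was 2.92 (95% interval 1.35 to 6.34; log2 1.55, standard error 0.51), with an adjusted p of 0.315. These levels rest on few reads, between 2 and 73 per library, and the 2 reads of No MM 3 are below the 3 counts taken as detectable. The difference was smaller but kept its direction without No MM 3 and No MM 4, at a log2 fold change of 1.08 (standard error 0.42, edgeR, adjusted p = 0.643), with no overlap between the groups (two-sided exact permutation test over 56 assignments, p = 0.0179). Among the 7 libraries without Y-linked transcripts, Lta averaged 0.325 CPM in No MM and 1.19 CPM in MM, again without overlap (log2 fold change 1.86, standard error 0.70). In those 7 libraries the exact permutation test gave p = 0.0571. The unadjusted edgeR p-value of Lta stayed under 0.05 in all 10 fits that left out 1 library. The 9 T and NK cell markers, of lymphocytes that are known to express Lta, had their lowest sums in No MM 3 and No MM 4 (46.7 and 66.3 CPM), where Lta was lowest, and their highest in MM 7 (172 CPM), where it was highest. In the other libraries the sum was 91.4 to 149 CPM in No MM and 93.5 to 126 CPM in MM, so that, unlike Lta, the groups overlapped (two-sided exact permutation test over all libraries, p = 0.254). Single markers differed from the sum. Cd3e, Cd3g, Nkg7 and Ncr1 were highest in MM 7, but Cd3d in No MM 1, Klrb1c in No MM 2, Cd4 in MM 6 and Cd8a in MM 8. Gzma was highest in No MM 4 (6.24 CPM, against 2.76 CPM in MM 7). Cd3d, Cd4, Nkg7, Klrb1c and Ncr1 were lowest in No MM 3 and No MM 4, whereas Cd3e, Cd3g, Cd8a and Gzma were not lowest in both. Low sums in No MM 3 and No MM 4 were not particular to these cells. The osteoblast, osteoclast, neutrophil, erythroid, and megakaryocyte and platelet marker sums were also lowest there. None of the T and NK cell markers was at 0 in any library, and their part in the Lta values was not tested.

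Tnf, which encodes the founding member of the family, was measured at 0.952, 2.22, 1.03, 1.67 and 2.87 CPM in No MM 1 to 5. It was measured at 1.86, 3.27, 9.83, 3.09 and 2.52 CPM in MM 6 to 10. MM 8 stood far above the rest, and the other 4 MM libraries reached at most 3.27 CPM, near the highest No MM value. No MM mice averaged 1.75 ± 0.810 CPM (SD, n = 5), MM mice averaged 4.11 ± 3.24 CPM (SD, n = 5), and the difference did not pass a two-sided exact permutation test (p = 0.0635). edgeR gave a fold change of 2.34 (95% interval 1.08 to 5.10; log2 1.23, standard error 0.51), with an adjusted p of 0.332. Without MM 8 the fold change was 1.53 (log2 0.61, standard error 0.40). The unadjusted edgeR p-value of Tnf was under 0.05 in 6 of the 10 fits that left out 1 library, and not in those without No MM 1, No MM 3, No MM 4 or MM 8. Without No MM 3 and No MM 4, the log2 fold change was 1.003 (standard error 0.60, 95% interval -0.35 to 2.35). MM 8 also had the highest level of Ccr2, a monocyte gene (440 CPM, against 42.5 to 202 CPM elsewhere), but its sum of the 8 monocyte and macrophage markers, 1659 CPM, lay within the 614 to 1994 CPM of the other libraries. The dendritic cell markers did not move together in MM 8. Of the 7, Itgax (75.1 CPM, against 15.2 to 40.2 CPM elsewhere) and Batf3 (38.8 CPM, against 1.59 to 4.17 CPM) stood above all other libraries, whereas Flt3, Clec9a, Xcr1, Siglech and Zbtb46 together summed to 54.0 CPM, the lowest of the MM libraries, which ranged up to 77.3 CPM. The sum of all 7 was 168 CPM in MM 8, 83.4 to 105 CPM in the other MM libraries and 45.9 to 86.7 CPM in No MM, and none was at 0 in any library. Among the 14 marker lists, this sum had the smallest p-value between the groups (log2 difference 0.70, two-sided exact permutation test, p = 0.0159, and 0.222 adjusted over the 14 lists). The same exact test gave p = 0.0238 without MM 8 and 0.107 without No MM 3 and No MM 4. The part of these cells in the Tnf values was not tested.

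Ltb was expressed at far higher levels than its neighbors. In No MM 1 to 5 it was measured at 27.5, 38.7, 10.02, 17.6 and 23.4 CPM, with both immunoglobulin-rich libraries lowest. In MM 6 to 10 it was measured at 26.4, 39.3, 28.8, 35.4 and 29.9 CPM. The highest No MM library exceeded 4 of the 5 MM libraries. For Ltb the log2 fold change was 0.45 (95% interval -0.23 to 1.12, edgeR, adjusted p = 0.507), and 0.08 without No MM 3 and No MM 4 (-0.39 to 0.55). In the exact permutation test, the difference had p = 0.135 with all libraries, and of the tests that left out 1 library only that without No MM 2 passed 0.05 (p = 0.0159). Tnfsf10 ranged from 12.7 to 22.7 CPM in No MM and from 14.9 to 27.3 CPM in MM. The Tnfsf10 ranges lay almost on top of each other, with a log2 fold change of 0.11 (95% interval -0.41 to 0.63).

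**Figure D2:**
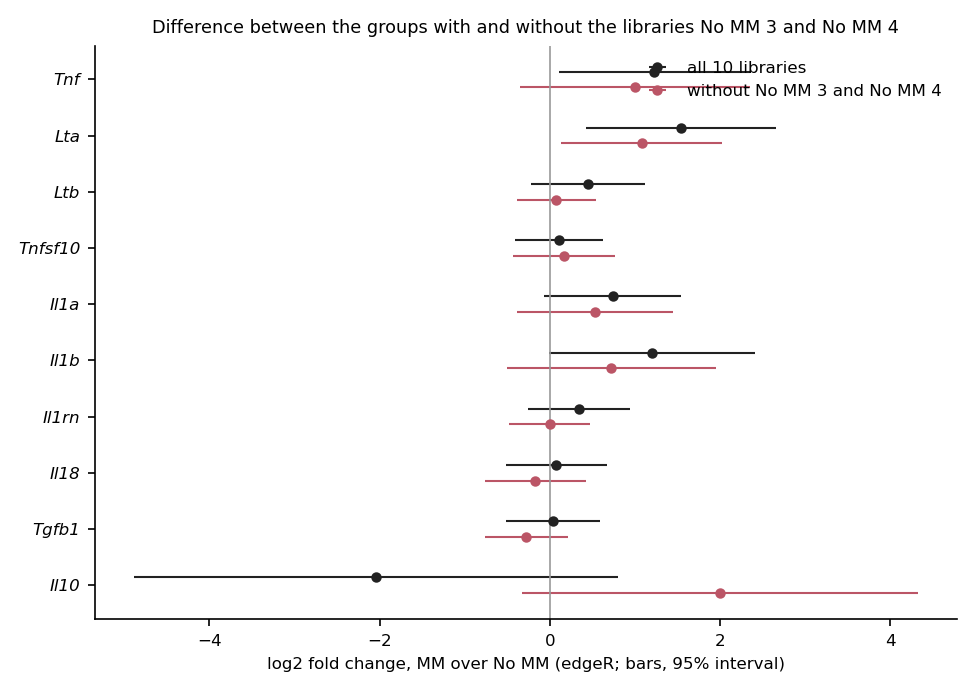
Log2 fold change of each cytokine gene, MM over No MM, from edgeR with all 10 libraries (black) and without No MM 3 and No MM 4 (red); bars are 95% intervals. The interval of Lta stays above 0 in both fits, that of Tnf reaches below 0 in the second, and Il10 moves from -2.04 to 2.00.

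In the IL-1 family, Il1b had the highest level and the largest fold change. Its values in No MM 1 to 5 were 20.1, 38.2, 17.5, 13.5 and 93.7 CPM. In MM 6 to 10 they were 31.1, 73.9, 73.2, 118 and 126 CPM. No MM 5 lay among the MM values, and MM 6 among the No MM values. No MM mice averaged 36.6 ± 33.3 CPM (SD, n = 5), MM mice averaged 84.3 ± 38.4 CPM (SD, n = 5), and the difference missed the threshold in a two-sided exact permutation test (p = 0.0556). edgeR gave a fold change of 2.30 (95% interval 0.992 to 5.34; log2 1.20, standard error 0.55, adjusted p = 0.358). The 3 libraries with Y-linked transcripts held the 3 highest values, 93.7 CPM in the No MM library and 118 and 126 CPM in both MM libraries. Among the 7 without them, No MM mice averaged 22.3 ± 10.9 CPM of Il1b (SD, n = 4) and MM mice 59.4 ± 24.5 CPM (SD, n = 3), with overlap (two-sided exact permutation test, p = 0.0857). A fit with the presence of Y-linked transcripts as a covariate gave a log2 fold change of 1.11 (standard error 0.35, edgeR, adjusted p = 0.564). Il1b was then among the 8.54% of tested genes with an unadjusted p-value under 0.05. The log2 fold change was 0.72 without No MM 3 and No MM 4 (standard error 0.54, 95% interval -0.50 to 1.95). Leaving out No MM 5 raised the fold change from 2.30 to 3.77, with an adjusted edgeR p of 0.0898.

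Il1b levels also moved with neutrophil markers, which sum 10 genes such as S100a8 and Ly6g. The marker sum was 6434 and 6910 CPM in No MM 3 and No MM 4 and 8659 CPM in MM 6, the 3 libraries with the lowest sums. Il1b was 17.5, 13.5 and 31.1 CPM there. In the other 7 libraries the sum lay between 19605 and 28769 CPM, and Il1b between 20.1 and 126 CPM. The groups overlapped in summed neutrophil markers (two-sided exact permutation test, p = 0.341, and 0.625 adjusted over the 14 marker lists), and their part in the Il1b values was not tested. No MM 1 paired a high marker sum, 22544 CPM, with the low Il1b value of 20.1 CPM.

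**Figure D3:**
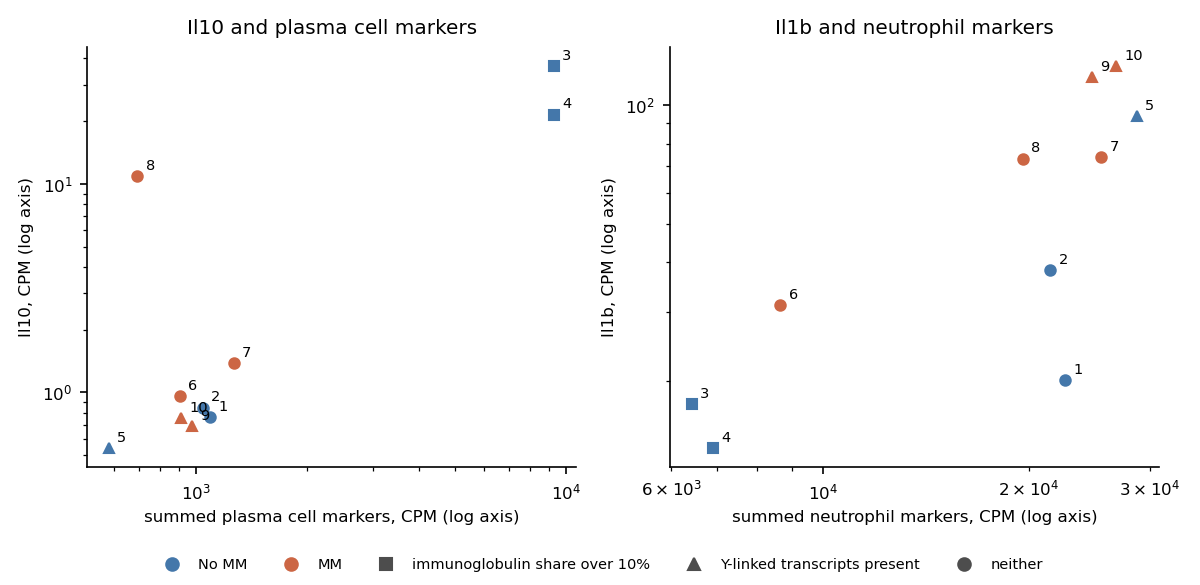
Left, Il10 against the summed plasma cell markers, and right, Il1b against the summed neutrophil markers, in CPM on log axes, with each library named by its mouse number; colors are groups, squares libraries with an immunoglobulin share over 10% and triangles libraries with Y-linked transcripts. No MM 3 and No MM 4 stand at the top right for Il10 and the bottom left for Il1b, while MM 8 has 10.9 CPM of Il10 at a plasma cell marker sum of 695 CPM.

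Il1a, the other IL-1 agonist, was measured at 3.77, 6.56, 2.75, 4.03 and 4.14 CPM in No MM 1 to 5. It was measured at 2.77, 6.19, 7.80, 10.2 and 8.53 CPM in MM 6 to 10. MM 8, MM 9 and MM 10 exceeded every No MM value, while MM 6 was as low as the lowest of them. The log2 fold change was 0.74 (95% interval -0.07 to 1.54, edgeR, adjusted p = 0.386). It became 0.54 without No MM 3 and No MM 4 (95% interval -0.38 to 1.45). MM 9 and MM 10, with the highest Il1a values, hold Y-linked transcripts, as does No MM 5, at 4.14 CPM. Without the libraries with Y-linked transcripts, the log2 fold change of Il1a was 0.39 (95% interval -0.72 to 1.50). Of the fits that left out 1 library, only those without MM 6 and without No MM 2 passed the unadjusted threshold, at log2 fold changes of 0.94 and 0.95. The antagonist gene Il1rn ranged from 16.2 to 34.9 CPM in No MM and from 21.9 to 43.7 CPM in MM. The fold change of Il1rn on the log2 scale was 0.35 (95% interval -0.26 to 0.95), and -0.0012 without No MM 3 and No MM 4, which held its lowest values (95% interval -0.48 to 0.48). Il18 lay between 6.79 and 16.5 CPM in No MM and between 8.62 and 13.8 CPM in MM. The interval of its log2 fold change, -0.52 to 0.67, was centered near 0 (0.08).

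The ratio of Il1b to Il1rn reads, agonist over antagonist, was 1.09, 2.00, 1.97, 1.50 and 5.72 in No MM 1 to 5. It was 2.59, 3.57, 3.06, 6.58 and 7.51 in MM 6 to 10. The 3 libraries with Y-linked transcripts again held the 3 highest values, and every other No MM library was below every MM library. On the log2 scale the mean ratio differed by 1.05, which did not pass a two-sided exact permutation test (p = 0.0873, adjusted p = 0.238 over the 3 ratios compared). The difference was 0.88 without No MM 3 and No MM 4 (exact permutation test, p = 0.250). The ratios of Il1b to Il1a and of Tnf to Lta did not differ beyond their spread either (exact permutation tests, p = 0.159 and p = 0.333).

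Reads of antisense genes limit some of these values, because the library kit marks strand but the counting setting is not given in the sources used here. Il1bos overlaps Il1b on the opposite strand by 1243 bases and was itself higher in MM at an unadjusted p-value under 0.05 (log2 fold change 1.41), at 5 to 53 reads per library against 372 to 4831 for Il1b. Gm14023 overlaps Il1a, also on the opposite strand. Bco2 and Tex12 overlap Il18 on the opposite strand in GENCODE M21, where Il18 starts at base 50554827. The deposited Il18 starts at base 50575273, and whether they overlap that shorter gene was not examined. Gm14023 had 17 to 53 reads per library, against 85 to 369 for Il1a.

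Tgfb1, which encodes the TGF-β isoform stored in bone matrix, had the highest CPM of the set. Its values ranged from 101 to 249 CPM in No MM and from 133 to 173 CPM in MM. The MM libraries fell within the No MM range, where No MM 3 and No MM 4 were lowest and No MM 1 highest. No MM mice averaged 153.6 ± 62.1 CPM (SD, n = 5) and MM mice 157.5 ± 17.1 CPM (SD, n = 5). The log2 fold change of Tgfb1 was 0.04 (95% interval -0.52 to 0.59), and -0.28 without No MM 3 and No MM 4 (95% interval -0.76 to 0.21).

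Il10 separated single libraries rather than groups. It was measured at 0.762, 0.845, 36.8, 21.5 and 0.539 CPM in No MM 1 to 5. In MM 6 to 10 it was measured at 0.957, 1.38, 10.9, 0.689 and 0.755 CPM. The 3 high libraries, No MM 3, No MM 4 and MM 8, held 460 to 1138 reads of Il10, while the other 7 held 20 to 51. The log2 fold change of -2.04 (standard error 1.29, 95% interval -4.89 to 0.81) did not pass the test (edgeR, adjusted p = 0.478). The direction turned to 2.00 without No MM 3 and No MM 4 (standard error 1.03, 95% interval -0.33 to 4.33). It was 0.39 when MM 8 was also left out (95% interval -0.49 to 1.27). Leaving out No MM 3 alone gave -1.01 (standard error 1.26), and leaving out MM 8 alone gave -3.67 (standard error 1.34, edgeR, adjusted p = 0.467). In No MM 3 and No MM 4, Il10 stood beside plasma cell transcripts such as Irf4, at 1007 and 760 CPM against 16.9 to 40.7 CPM elsewhere, and Xbp1, at 1929 and 1932 CPM against 198 to 356 CPM. The markers Sdc1, Jchain, Tnfrsf17 and Prdm1 were also highest in those libraries. Mzb1 was not, at 62.9 and 65.5 CPM there against 87.6 CPM in No MM 1 and 70.4 CPM in No MM 2. All 7 listed plasma cell markers were detected in every library. In MM 8, the plasma cell marker sum of 695 CPM was among the lowest. The part of these cells in the Il10 values was not tested.

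Divided by transcript length, as CPM per kilobase, the mean levels over the 10 libraries fell in the order Tgfb1 (71.5 ± 19.8, SD), Il1b (44.6 ± 31.1), Ltb (19.6 ± 6.47), Il18 (15.5 ± 4.22), Il1rn (12.0 ± 3.65), Il10 (5.73 ± 9.44), Tnfsf10 (3.76 ± 0.934), Il1a (2.87 ± 1.30), Tnf (1.79 ± 1.56) and Lta (0.528 ± 0.380). The ranges of all neighbors in this order overlapped. Within libraries, Tgfb1 exceeded Il1b in 7 of 10, Il1b exceeded Ltb in 8 of 10, Il1a exceeded Tnf in 9 of 10, and Tnf exceeded Lta in all 10. The place of Il10 rested on 3 libraries. By its median over libraries, 0.688 CPM per kilobase, Il10 was the 9th of the 10, above Lta alone. The spread among No MM mice differed widely between genes, with a highest-to-lowest ratio of 68.2 for Il10, 8.71 for Lta and 6.94 for Il1b, and of 1.79 for Tnfsf10, the only gene within a 2-fold span.

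**Figure D4:**
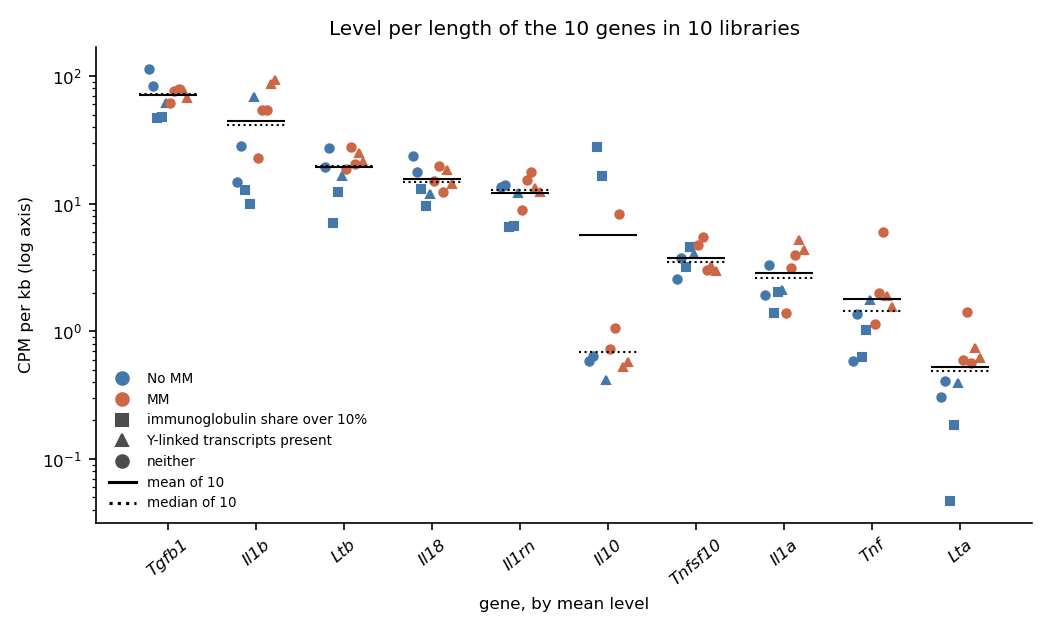
Level per length of each cytokine gene in each of the 10 libraries, in CPM per kilobase on a log axis, ordered by mean; solid lines are means and dotted lines medians of the 10 libraries, with colors for groups and shapes as in the plot of CPM by library. The lines nearly coincide for Tgfb1 and Ltb, and lie far apart for Il10, at 5.73 and 0.688.

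The receptors, processing enzymes, signaling proteins and target genes of these cytokines were examined in 8 lists of 76 genes, of which 75 passed the filter on low counts. No gene of these lists passed an adjusted p-value of 0.05 in edgeR or DESeq2. At an unadjusted p-value under 0.05, 8 were higher and 3 lower in MM, or 14.7% of the 75 against 14.1% of all tested genes. The adjusted edgeR p-values of these 11 lay between 0.315 and 0.348. By direction, the background was 3.81% higher and 10.3% lower. The lists thus held more higher than lower genes, whereas all tested genes held more lower ones. Without No MM 3 and No MM 4, 7 pathway genes were higher and 0 lower at the unadjusted threshold, or 9.33% against 5.89%. Of these, only Nlrp3, Ikbkb and Ccl3 were also higher with all libraries. Aim2, Traf3 and Birc3 were not called with all libraries, and Map3k14 was called lower there.

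Of the 5 TNF family receptors, none was higher and Tnfrsf10b, the mouse death receptor for TRAIL, was lower at an unadjusted p-value under 0.05. Tnfrsf10b was 16.2 and 10.5 CPM in No MM 3 and No MM 4, against 2.87 to 3.01 CPM in the other No MM libraries and 2.08 to 4.17 CPM in MM. With all libraries its log2 fold change was -1.27 (standard error 0.54), and without those libraries it was -0.01 (standard error 0.30). Among the 6 IL-1 and IL-18 receptor genes, Il1r1, the signaling receptor of IL-1, was higher at the unadjusted threshold (log2 fold change 0.54), with 17.8 ± 5.68 CPM against 26.0 ± 3.11 CPM (SD, n = 5 each). Il18r1, the binding chain of the IL-18 receptor, was also higher at that threshold, with a log2 fold change of 1.08 (fold change 2.11). No MM 5, at 14.9 CPM, lay among the MM values of 10.01 to 16.7 CPM, and without it the fold change of Il18r1 was 3.17. Neither passed it without No MM 3 and No MM 4, with log2 fold changes of 0.29 and 0.64. Of the 6 TGF-β and IL-10 receptor genes, Il10ra, the ligand-binding chain of the IL-10 receptor, was higher, at 32.4 to 51.886 CPM in No MM and 51.935 to 187 CPM in MM. The groups of Il10ra did not overlap, although by a narrow margin, and MM 8 was again the highest. The log2 fold change of Il10ra was 1.08 (standard error 0.35) and, without MM 8, 0.57 (standard error 0.18). Without No MM 3 and No MM 4 it was 0.95 and no longer past the unadjusted threshold.

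Of 12 genes for cytokine processing and the inflammasome, Nlrp3 and Gsdmd were higher and none lower at the unadjusted threshold. Nlrp3, the sensor that assembles the caspase-1 inflammasome, was at 7.80 ± 3.98 CPM in No MM and 16.3 ± 2.82 CPM in MM (SD, n = 5 each). For Nlrp3 the log2 fold change was 1.06 (standard error 0.37), and 0.64 without No MM 3 and No MM 4 (standard error 0.22), past the unadjusted threshold in both fits. Gsdmd encodes gasdermin D, the pore through which IL-1β leaves the cell, and its log2 fold change was 0.47 (standard error 0.17). Among 15 adaptors and kinases, Irak2, a kinase downstream of the IL-1 receptor, was higher (log2 fold change 0.46). Fadd, an adaptor of death receptors, was lower (log2 fold change -0.51). Without No MM 3 and No MM 4, neither of these nor Gsdmd passed the unadjusted threshold. Map3k14 encodes NIK, the kinase of the non-canonical NF-kappaB pathway that the lymphotoxin-β receptor engages. It was 262 and 316 CPM in No MM 3 and No MM 4, 15.0 to 21.7 CPM in the other No MM libraries and 23.2 to 37.5 CPM in MM. Called lower with all libraries at the unadjusted threshold (log2 fold change -2.19, standard error 0.83), Map3k14 was called higher at that threshold without the 2 libraries (0.50, standard error 0.21). Leaving out No MM 4 alone gave -1.53 (standard error 0.78).

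Of 8 NF-kappaB subunits and IkappaB kinases, Ikbkb, which encodes IKKβ, the kinase that releases NF-kappaB in response to TNF and IL-1, was higher. It ranged from 57.2 to 83.3 CPM in No MM and from 86.2 to 123 CPM in MM, without overlap. The log2 fold change of Ikbkb was 0.56 (standard error 0.15, edgeR, adjusted p = 0.315), and 0.48 without No MM 3 and No MM 4 (standard error 0.17). Among 15 tested NF-kappaB target genes, Ccl3, a chemokine, was higher (log2 fold change 1.62), with 29.0 CPM in MM 8 and 2.33 to 6.19 CPM in the other MM libraries. Without MM 8 the log2 fold change of Ccl3 was 0.41 (standard error 0.43). None of the 8 TGF-β target genes passed the unadjusted threshold. The 2 most abundant of them, Tgfbi and Ski, had log2 fold changes of 0.26 and 0.17.

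**Figure D5:**
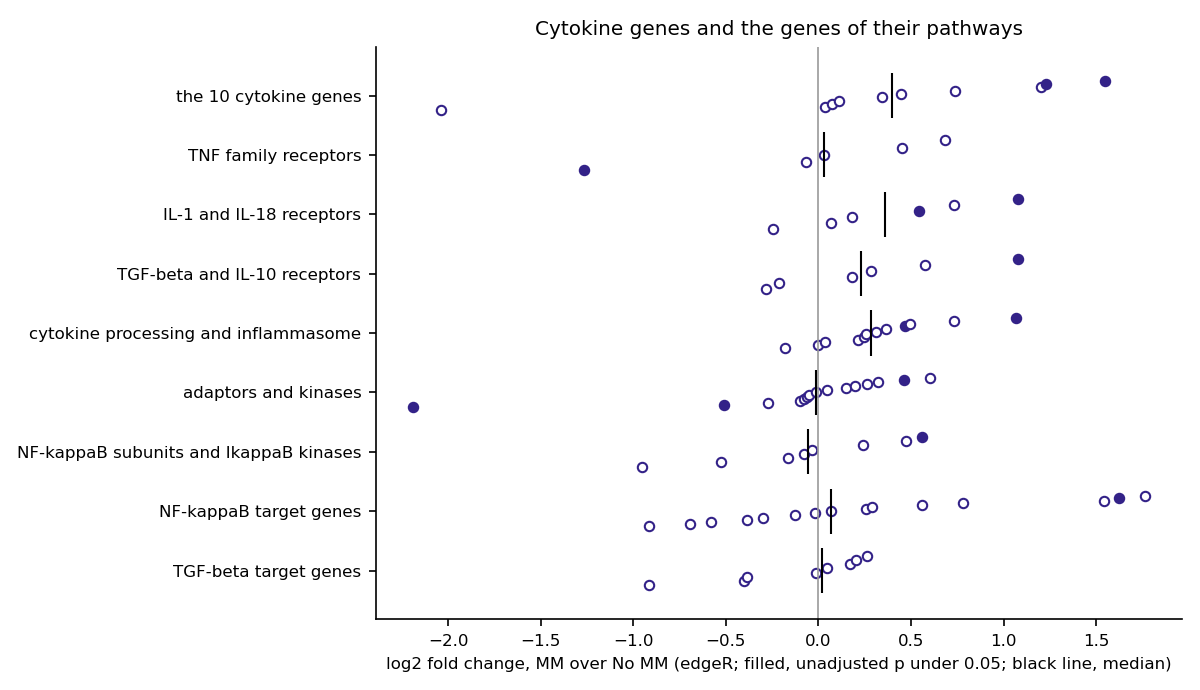
Log2 fold change, MM over No MM, of the 10 cytokine genes and of the tested genes of 8 pathway lists (edgeR, all 10 libraries); each circle is a gene, filled where the unadjusted p-value is under 0.05, and black lines are medians. The cytokine genes have a median of 0.40, and the medians of the lists lie between -0.06 and 0.36.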

How the data were processed

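Osteocytes of 5 No MM and 5 MM mice were profiled by RNA-seq, with 1 library per mouse from the TruSeq Stranded Total RNA kit. The submitters' processing notes name FastQC 0.11.5 and STAR, and the counting program, its strand setting and the genome build are not given in the sources used here. The authors deposited raw read counts per gene, which alone were analyzed. The authors also deposited a normalized signal (each count over its library's size factor) and FPKM values. The deposited log2 fold changes, p-values and adjusted p-values are the authors' own comparison and were not used. Gene coordinates in the table were the same as in GENCODE M21 (GRCm38) for 9 of the 10 cytokine genes. Il18 differed.

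Counts were filtered with filterByExpr of edgeR 4.0.16 (R 4.3.3), which left 16186 genes, scaled by the TMM method, and fitted with glmQLFit, with glmQLFTest for MM against No MM and no covariates. P-values were adjusted over all tested genes by the Benjamini-Hochberg method, with a threshold of 0.05. The biological coefficient of variation was 0.46. Single genes were also compared by exact permutation tests (two-sided, over every assignment of mice to groups) of mean log2 CPM with a prior count of 2. Alternatives were DESeq2 1.42.0, RLE and upper-quartile scaling, other count filters, immunoglobulin genes removed, 1 surrogate variable (sva 3.50.0), each library left out, and No MM 3 and No MM 4 left out. Chosen after seeing the data were MM 8 left out with them, presence of Y-linked transcripts (summed CPM over 10) as a covariate or as a reason to leave libraries out, and marker sums without these libraries or without Itgax and Batf3. The edgeR and DESeq2 tests were also run on simulated counts. There, each gene had the same mean CPM in all libraries, apart from genes changed on purpose in MM. That check therefore did not cover libraries that stand apart in many genes.

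The cytokine genes and all lists were chosen with earlier results of these data known. Pathway genes were named where their unadjusted p-value was under 0.05, and otherwise the 2 of a list with the highest CPM. Aim2, Traf3 and Birc3 were named because they passed that threshold without No MM 3 and No MM 4. For each cytokine gene with a mean of 1 CPM or more, the 3 tested genes most like it by Pearson r were also named. Spearman's rho was computed with SciPy 1.17.1. Immunoglobulin and Y-linked genes, Xist, antisense genes and the single marker genes given with values were named after their values were seen. Adgre1 and Jchain are listed in the table as Emr1 and Igj.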

Additional observations from a re-analysis of the deposited data

Results flagged for a closer look

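A single library stood apart from the other 4 of its group, by Dixon's test at 95%, in 6 of the 46 sets of 5 values examined. For normally distributed values, chance gives about 2.3. The test used CPM without a log scale, and the sets share libraries, so that number is only a rough guide. The MM 8 library accounted for 4 of them. Its level was 9.83 CPM for Tnf, against 1.86 to 3.27 CPM in the other MM libraries, and 10.9 CPM for Il10, against 0.689 to 1.38 CPM. It was also 187 CPM for Il10ra, against 51.9 to 71.5 CPM, and 29.0 CPM for Ccl3, against 2.33 to 6.19 CPM. Lta in MM 7 was 1.97 CPM, against 0.780 to 1.02 CPM in the other MM libraries. Nlrp3 in MM 6 was the lowest of its group, at 11.4 CPM against 16.9 to 18.0 CPM.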

How the results depend on the processing

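No paired analysis was possible because the labels number the mice 1 to 5 and 6 to 10, so the groups share no replicate number. Under 22 alternative fits, none of the 219 values of the 10 cytokine genes passed an adjusted p-value of 0.05, and the smallest was 0.0774, for Lta with DESeq2. At an unadjusted p-value under 0.05, 617 genes were higher and 1664 lower among all tested, 2 cytokine genes were higher, and 8 pathway genes were higher and 3 lower, against 0 in each case with adjustment. DESeq2 called 31 genes higher and 176 lower. Without No MM 3 and No MM 4, the log2 fold change of Il10 turned to 2.00, Il1rn to -0.0012, Il18 to -0.17, Tgfb1 to -0.28, Map3k14 to 0.50 and Ski to -0.11. Without MM 8 as well, these were 0.39 for Il10, -0.11 for Il1rn, -0.086 for Il18, -0.30 for Tgfb1, 0.37 for Map3k14 and -0.10 for Ski, with 0.10 for Tnfrsf10b and -0.20 for Tgfbi. With 1 surrogate variable they were 1.64 for Il10, -0.12 for Il18, -0.19 for Tgfb1, 0.28 for Map3k14 and -0.047 for Ski. Without the 3 libraries with Y-linked transcripts, Il18 was -0.019 and Tgfb1 -0.010. With Y-linked transcripts as a covariate and without No MM 3 and No MM 4, they were 1.67 for Il10, -0.13 for Il18, -0.23 for Tgfb1, 0.50 for Map3k14 and -0.10 for Ski. The cause of these turns was not tested. The mean log2 CPM difference of the exact permutation tests turned to -0.013 for Il1rn, -0.11 for Il18, -0.21 for Tgfb1 and 1.05 for Il10 without No MM 3 and No MM 4. With 1 library left out at a time, that difference ranged from -0.015 to 0.30 for Il18, 0.50 to 0.97 for Il1a, 1.17 to 1.87 for Il1b, 0.30 to 0.78 for Ltb, -0.011 to 0.31 for Tgfb1, 0.69 to 1.28 for Tnf and -0.039 to 0.18 for Tnfsf10. Tnf passed without No MM 5 or MM 6, Ltb without No MM 2, Il1a without MM 6, and Il1b without No MM 5 or MM 6, in unadjusted exact permutation tests. The edgeR log2 fold change ranged from -0.050 to 0.29 for Il18, -0.083 to 0.28 for Tgfb1 and -0.039 to 0.21 for Tnfsf10. Lta, at 2 to 73 reads per library, was the gene most limited by depth.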

Other observations

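Patterns across mice were compared over the 8 libraries other than No MM 3 and No MM 4, as a description of genes picked for their correlation among all tested genes. These libraries share their scaling, so no p-value is given. The gene most like Tnf was Ccr2, the chemokine receptor of inflammatory monocytes (r = 0.992, rho = 0.976, n = 8), and r was 0.956 over the 6 libraries left when MM 8 and No MM 1, farthest from the median of Tnf, were omitted. Cd200r4 and Tpd52 followed, with r of 0.86 and 0.89 over those 6. For Il1b, the 3 genes were Dennd2d, Csf3r, the neutrophil receptor for G-CSF, and Aatk, and their r of 0.995 to 0.997 became 0.982 to 0.989 over 6 libraries without MM 6 and No MM 1. Il1a was most like Plek, Pkd1l3 and Kif2a (r = 0.98 to 0.99), and r for Plek was 0.996 without MM 6 and No MM 1. For Ltb they were Erbb3, Rfxap and Pde1c, with r of 0.90 to 0.97. For Tnfsf10 they were Mill2, Fam101a and Prr5l, with r of 0.95 to 0.98. Sash3, Rnase2b and BC017643 were most like Il1rn, with r of 0.97 to 0.98 that became 0.75 to 0.90 without MM 6 and MM 8. Il18 was most like Sln, Tnnt1, both expressed in muscle, and Ppp1r13b, with r of 0.97 to 0.98. The skeletal muscle markers Acta1, Ckm, Myh4 and Tnnt3 did not follow Il18 in every library. Their sum was 559 CPM in MM 7 and 3612 CPM in MM 6, where Il18 was 13.8 and 10.6 CPM. No MM 1 was high in both, at 3430 CPM of these markers and 16.5 CPM of Il18. The part of muscle in the Il18 values was not tested. Rps16-ps2, Vamp5 and Rbm14 were most like Tgfb1, each with r of 0.99. For Il10, r of 0.98 to 0.99 for Rasgef1b, Rassf4 and Abcg1 rested on single libraries, and became 0.81, 0.16 and 0.61 without MM 7 and MM 8.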
